A study of Sus scrofa with 2 samples.

Results

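Dividing invariant natural killer T (iNKT) thymocytes of the pig were set against dividing thymocytes of the whole thymus, so that both sides carried transcripts of cell division. A cell was taken as mitotic when TOP2A, UBE2C, CDC20, CENPF, CCNB2 and TPX2 together gave at least 5 unique molecular identifiers (UMIs, each standing for 1 captured transcript), in a cell of at least 4000 UMIs, 500 genes and no more than 10% mitochondrial UMIs. Members were thus chosen by measured values, the raw UMIs of these 6 genes. The rule took 109 iNKT cells and 855 total thymocytes, 964 of the 19299 cells that passed the filter on genes and mitochondrial UMIs, and each was thinned to 4000 UMIs at random. Both droplet libraries were made from untreated pigs of mixed breed aged 22 weeks. Thymocytes of 2 pigs were pooled in each, live cells were sorted by flow cytometry for both, and the iNKT cells were first enriched from the same thymi on magnetic beads. Each kind of cell therefore has 1 library and 2 animals that cannot be separated, and no difference has a replicate check. Ratios have exact 95% intervals that cover counting error only, and bead enrichment cannot be told apart from cell kind.

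The antigen receptor of iNKT cells varies little from cell to cell and binds lipids held by CD1d. They branch off from thymocytes that carry both CD4 and CD8, and in mice their young precursors divide after positive selection. Most other division in the thymus belongs to an earlier step, when thymocytes with a working receptor beta chain and the pre-T cell receptor expand before they rearrange the alpha chain. Entry into mitosis is driven by B-type cyclins with CDK1, chromosomes are packed by condensins and topoisomerase II, and the anaphase-promoting complex with CDC20 then marks cyclins and securin for destruction.

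Few iNKT cells met the rule. Mitotic cells made up 1.74% of iNKT cells of at least 4000 UMIs (109 of 6249, exact binomial interval 1.43 to 2.10) and 39.4% of total thymocytes of that depth (855 of 2171, 37.3 to 41.5). Over all filtered cells, shallow ones included, 0.976% of iNKT cells and 11.3% of total thymocytes reached the sum. The depth requirement left out 5024 of 11273 iNKT cells and 5855 of 8026 total thymocytes, among them 1 and 54 with a sum of 5 or more. At the threshold, 11 iNKT and 46 total cells had a sum of exactly 5 and entered, while 17 and 56 had a sum of 4 and did not. The mitotic cells had median totals of 9841 UMIs in the iNKT library and 8737 UMIs in the total library before thinning. Of the 30 barcodes that the filtered cells of both libraries share, none was mitotic in both, and 3 mitotic total cells carried one.

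The rule did not bring the 2 groups to the same level of mitotic transcripts. After thinning, the 6 genes gave a median of 6 UMIs per iNKT cell (quartiles 4 and 13, highest 52) and 12 UMIs per total cell (5 and 27, highest 90). A sum of 20 was reached by 15 of 109 iNKT cells (13.8%, interval 7.91 to 21.7) and by 299 of 855 total cells (interval 31.8 to 38.3). The 12 S phase genes MCM2 to MCM6, PCNA, TYMS, UHRF1, GINS2, CDC6, CDT1 and CLSPN gave a median of 9 UMIs per cell on both sides. At least 5 UMIs of these S phase genes and fewer than 5 of the mitotic genes were found in 26.6% of iNKT and 18.0% of total cells, so the label mitotic covers cells from S phase to division. After thinning, 9 of 109 iNKT cells (8.26%) and 12 of 855 total cells (1.40%) had 5 UMIs of neither set. TOP2A, the enzyme that untangles chromosomes, stood at 699.5 CPM (UMIs of a gene per 1000000 UMIs) in mitotic iNKT cells and 994 CPM in mitotic total cells. UBE2C, the ubiquitin-conjugating enzyme of the anaphase-promoting complex, stood at 507 and 1109 CPM, and CDC20, its activator, at 193 and 519 CPM. CENPF, a kinetochore protein, stood at 679 and 1233 CPM, CCNB2, a B-type cyclin, at 108 and 198 CPM, and TPX2, a spindle assembly factor, at 307 and 494 CPM. These 6 genes chose the cells, and their levels are given as a description.

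**Figure D1:**
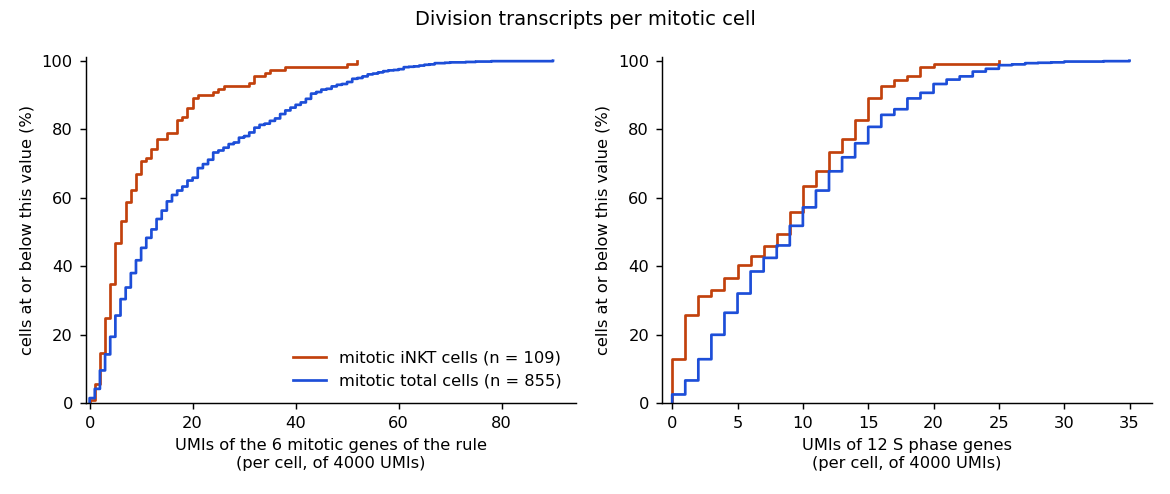
Cumulative share of mitotic cells (y axis, percent) at or below a given number of UMIs per cell (x axis) of the 6 genes of the rule (left) and of 12 S phase genes (right), each cell thinned to 4000 UMIs. The iNKT curve lies above the total curve on the left, where medians are 6 and 12 UMIs, and the curves meet near the shared median of 9 on the right, with a larger part of iNKT cells at few S phase UMIs.

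Markers of T cells were found on both sides. CD3D, CD3E or CD3G had a UMI in 109 of 109 mitotic iNKT cells and in 820 of 855 mitotic total cells (95.9%). ZBTB16, which encodes PLZF, the transcription factor that defines innate-like T cells, had a UMI in 59 of 109 iNKT cells (54.1%, or 83.5% before thinning) and in 1 of 855 total cells. Markers of myeloid, dendritic, stromal and epithelial cells were low. The 11 measured myeloid and dendritic markers together gave 2.29 CPM in iNKT and 18.7 CPM in total cells, with 10 and 3 of them at 0. The 14 stromal and epithelial markers gave 2.29 and 12.3 CPM, with 13 and 12 at 0. Of 11 measured B and plasma cell markers, 9 were at 0 in iNKT cells and 3 in total cells. CD79A, a chain of the B cell receptor, made up 73.4 of the 75.7 CPM in iNKT cells and 159.6 of the 174 CPM in total cells, while MS4A1 had 0 UMIs on both sides and CD79B 0 and 4 UMIs. A UMI of any of these 3 genes was found in 27 of 109 iNKT cells (24.8%) and 410 of 855 total cells (48.0%). TRDC, the receptor delta constant gene, had 0 UMIs on both sides after thinning. The 9 measured erythroid and platelet markers gave 57.3 CPM in iNKT and 1186 CPM in total cells, and HBB, the beta globin of red cells, accounted for 1057 of the latter. A pair of total cells with 1699 and 1902 HBB UMIs and no CD3E UMI held all but 13 of its 3614 UMIs. The difference in HBB therefore rests on those 2 cells, without which it stood at 3.81 CPM in total cells, under the 6.88 CPM that a count of 0 allows in iNKT cells. Markers of gamma-delta-like cells summed to 525 and 431 CPM and those of natural killer and innate lymphoid cells to 147 and 279 CPM, both lists sharing genes with T cells. The part of these markers in the gene differences was not tested.

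Across genes, OX40, PLZF, NDST3, HPGDS and CD40 ligand were among the genes highest in mitotic iNKT cells, and FABP6, CD8, pre-T cell receptor and recombinase genes among the lowest. Genes were compared where the mean of both groups reached 50 CPM, which left 2852, and a gene was called when its ratio of CPM passed 2-fold. A gene absent from either group enters through its level in the other alone, so counts over gene lists describe the cells and test nothing. Of the 2852 genes, 268 were at least 2-fold higher in iNKT cells (9.4%) and 220 at least 2-fold lower (7.71%), and their median log2 ratio was −0.06. The counts of each list below are to be read beside these 2 shares. TMM scaling, which uses a trimmed and weighted mean of the gene ratios, moved that median further from equality, to −0.14. It gave 244 higher and 250 lower genes.

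**Figure D2:**
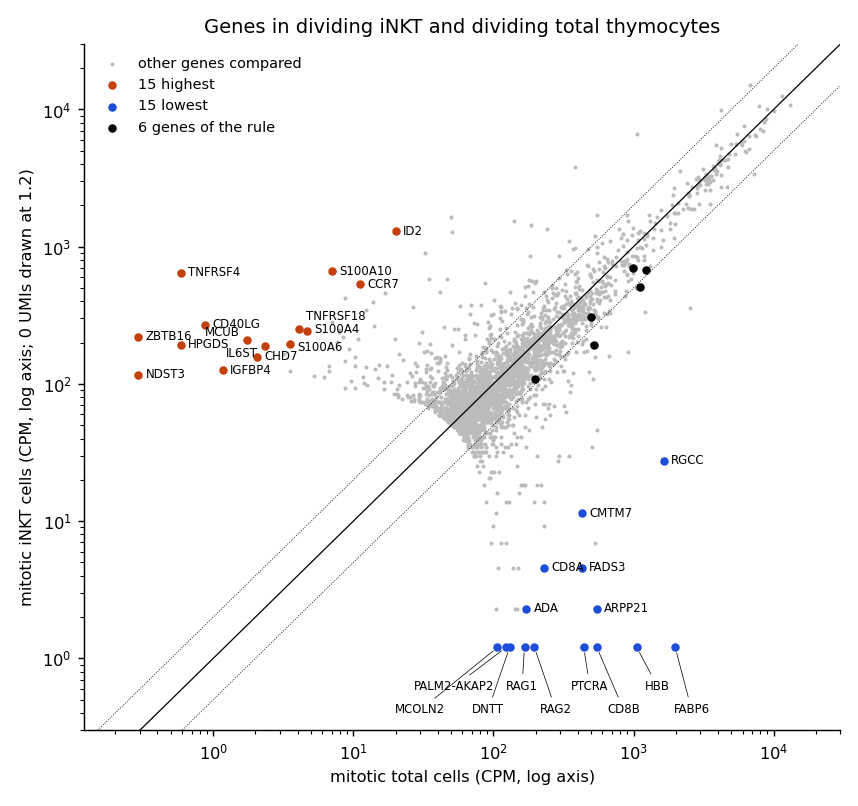
Level of each gene compared in mitotic total cells (x axis) and mitotic iNKT cells (y axis), both in CPM on log axes, with the line of equal levels and dotted lines at 2-fold. The 15 named genes with the highest lower bound of the ratio lie at the upper left with ZBTB16, TNFRSF4 and CD40LG under 1 CPM in total cells, the 15 with the lowest upper bound lie at the bottom right with 9 genes at 0 UMIs in iNKT cells, and the 6 genes of the rule lie below equality, with UBE2C and CDC20 past 2-fold.

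Genes of receptor recombination and of the stage with both coreceptors were far lower in mitotic iNKT cells. PTCRA, which pairs with the new beta chain in the pre-T cell receptor, had 0 UMIs in iNKT cells and 1508 UMIs (441 CPM) in total cells, at least 64.1-fold lower when the iNKT group is set at a floor of 3 UMIs. RAG1 and RAG2, the recombinase subunits, had 0 UMIs in iNKT cells and stood at 167 and 196 CPM in total cells, at least 24.2-fold and 28.5-fold lower. DNTT, or terminal transferase, which diversifies receptor joints, was likewise at 0 UMIs against 130.4 CPM, at least 19.0-fold lower. No mitotic iNKT cell held a UMI of RAG1, RAG2, DNTT, PTCRA or CD1E (0 of 109, which allows up to 2.75%), whereas 692 of 855 mitotic total cells did (80.9%, 78.1 to 83.5), which leaves 163 total cells without a UMI of these 5 recombination-stage genes. The 2 cells rich in HBB are among these 163, which held 3602 HBB UMIs (5525 CPM). All UMIs of the iNKT cells, before thinning, also held none of RAG1, RAG2, DNTT, PTCRA or CD8B. All 8 members of this list that were compared, of 16 measured, were at least 2-fold lower, with a median log2 ratio of −5.42. CD1B, which presents lipids on cortical thymocytes, was the nearest to equality at 29.8 against 348 CPM, 11.7-fold lower (6.80 to 22.0).

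Coreceptor genes followed the same order. CD8B had 0 UMIs in iNKT cells and 548 CPM in total cells, at least 79.6-fold lower. CD8A had 2 UMIs, both in 1 cell, and 229.5 CPM in total cells, a ratio of 0.0200 (0.00242 to 0.0724). CD4 had 0 UMIs in iNKT cells against 260 UMIs (76.0 CPM), and lay under the minimum level for the comparison. A UMI of CD8B was found in 62.3% of mitotic total cells and of CD4 in 22.5% (71.0% and 36.4% before thinning). Genes of the receptor complex went the other way. CD3E stood at 1165 against 813 CPM, a ratio of 1.43 (1.30 to 1.58), and CD247, the zeta chain, at 858 against 296 CPM, a ratio of 2.90 (2.57 to 3.27) that was 1.92 against the total cells without a recombination-stage UMI. CD5, whose level follows the strength of receptor signals, stood at 583 against 46.5 CPM, a ratio of 12.5 (10.2 to 15.4), and the costimulatory receptor CD28 at 106 against 9.65 CPM, a ratio of 10.9 (6.84 to 17.7). Of 8 coreceptor and lineage genes compared, 3 were at least 2-fold higher and 2 lower.

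Further genes among the 15 lowest included metabolic enzymes and a channel. FABP6, an intracellular bile acid binding protein, had 0 UMIs in iNKT cells and 1984 CPM in total cells, where 79.9% of cells held a UMI, and was at least 288-fold lower. RGCC, a regulator of cell cycle, stood at 27.5 against 1648 CPM, 59.9-fold lower (34.3 to 116), and had a UMI in 829 of 855 total cells and 11 of 109 iNKT cells. ARPP21, a cAMP-regulated phosphoprotein, had 1 UMI against 1863, a ratio of 0.00421 (0.000107 to 0.0235). FADS3, a fatty acid desaturase family member, had 2 UMIs against 1469, and CMTM7 had 5 against 1462. ADA, the adenosine deaminase whose loss causes immunodeficiency, had 1 UMI against 586. MCOLN2, a cation channel of endolysosomes, and PALM2-AKAP2 had 0 UMIs in iNKT cells, at least 15.5-fold and 17.8-fold lower.

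Of 4 cytokine and TNF family genes compared, of 26 measured, 3 were at least 2-fold higher in mitotic iNKT cells. OX40, encoded by TNFRSF4 and found on activated T cells, reached 647 CPM in mitotic iNKT cells, where 81 of 109 held a UMI, and 2 UMIs in total cells, both in 1 cell, a ratio of 1106 (303 to 9177). TNFRSF18, the related receptor GITR, stood at 252 against 4.09 CPM, a ratio of 61.6 (35.2 to 116). CD40LG, the ligand by which T cells help B cells, had 118 UMIs in 70 iNKT cells and 3 UMIs in 3 total cells, a ratio of 309 (103 to 1517). ZBTB16 had 96 UMIs (220.2 CPM) against 1 UMI, a ratio of 753 (132 to 30049). Ratios against so few UMIs moved with the draw and the cells taken. Over all UMIs before thinning they were 1176 for TNFRSF4 (5 UMIs in total cells), 173 for CD40LG (13 UMIs) and 2132 for ZBTB16 (1 UMI).

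Other genes among the 15 highest included enzymes and signalling proteins. HPGDS, which makes prostaglandin D in haematopoietic cells, gave 84 UMIs against 2 UMIs, a ratio of 329 (88.4 to 2765), and NDST3, an enzyme of heparan sulfate synthesis, 51 against 1, a ratio of 400.0 (68.6 to 16107). Before thinning these ratios were 518 and 90.7. MCUB, an inhibitory subunit of the mitochondrial calcium uniporter, stood at 209 against 1.75 CPM, a ratio of 119 (52.6 to 333) that was 51.3 before thinning. IL6ST, the shared signalling chain gp130, stood at 188 against 2.34 CPM, a ratio of 80.4 (38.9 to 192) and 44.5 before thinning. IGFBP4, a binding protein of insulin-like growth factors, had a ratio of 108 (39.8 to 409.8), and CHD7, a chromatin remodeller, of 77.3 (35.6 to 199). ID2, which holds E proteins off DNA, was the most abundant of the 15, at 1300.5 CPM and a UMI in 103 of 109 iNKT cells, against 20.2 CPM and 51 of 855 total cells, a ratio of 64.5 (50.1 to 84.0).

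**Figure D3:**
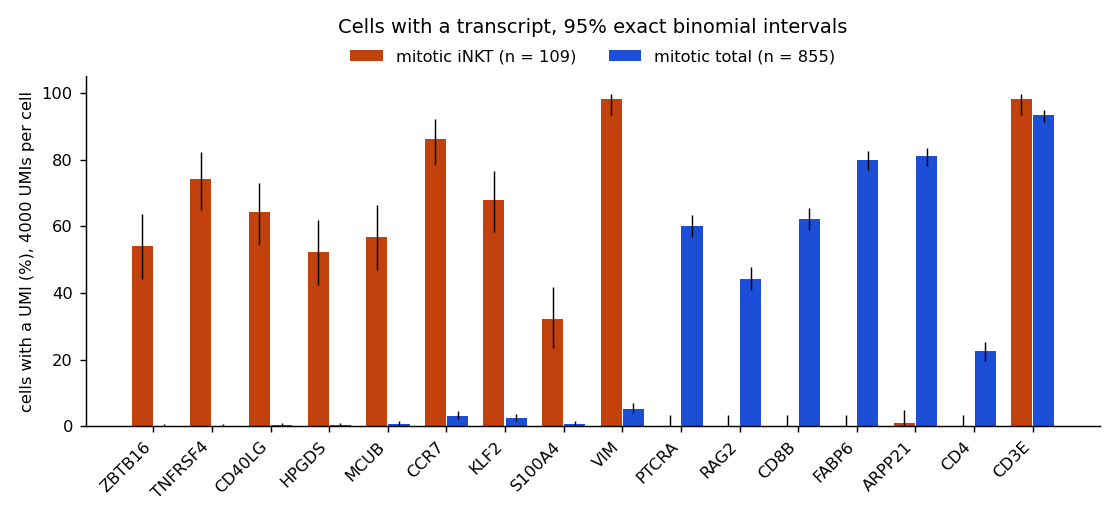
Share of mitotic cells with at least 1 UMI of a gene (y axis, percent), each cell thinned to 4000 UMIs, for 109 iNKT cells (orange) and 855 total cells (blue), with bars for exact 95% binomial intervals. PTCRA, RAG2, CD8B, FABP6 and CD4 are at 0 in iNKT cells, ZBTB16 is at 54.1% against 0.117%, and CD3E is above 90% on both sides.

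E proteins were lower and their inhibitors higher in iNKT cells. TCF12 and TCF3, which encode the E proteins HEB and E2A, stood at 29.8 and 52.8 CPM in iNKT cells against 204 and 111 CPM, 6.84-fold lower (3.98 to 12.9) and 2.10-fold lower (1.38 to 3.35). ID3, the other inhibitor of this family measured here, stood at 468 against 230.1 CPM, a ratio of 2.03 (1.73 to 2.37) that was 1.04 against the total cells without a recombination-stage UMI. TCF7, the T cell factor of early and naive T cells, was 5.35-fold lower (4.25 to 6.83), whereas its relative LEF1 stood at 454 against 390.4 CPM, a ratio of 1.16 (0.997 to 1.35). NOTCH1 and CD44, an adhesion receptor of early and of activated T cells, had ratios of 2.94 (2.04 to 4.18) and 4.66 (3.44 to 6.27). Of the 14 Notch and early T cell genes compared, 5 were at least 2-fold higher and 5 lower.

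Of 23 measured iNKT and effector transcription factors, 6 were abundant enough to be compared, of which ZBTB16, KLF2 and EGR1 were at least 2-fold higher and KLF13 was lower at 0.446 (0.337 to 0.580). KLF13 was no longer 2-fold lower once total cells were weighted to the 6-gene sums of iNKT cells, at 0.514, or against the total cells without a recombination-stage UMI, at 0.761. KLF2, a factor of thymic egress, stood at 461 against 17.0 CPM, a ratio of 27.2 (20.2 to 37.1), and EGR1, a factor of receptor signalling, at 227 against 73.7 CPM, a ratio of 3.08 (2.42 to 3.90). GATA3, the factor of type 2 responses, stood at 133 against 212 CPM, a ratio of 0.628 (0.472 to 0.821) that was 0.339 against the total cells without a recombination-stage UMI. TBX21, which encodes the type 1 factor T-bet, had 0 UMIs in iNKT cells against 22 UMIs in total cells. MAF, a regulator of IL4, had 8 against 4 UMIs, and ZBTB7B, the factor of the CD4 lineage, 12 against 0. IL4 had 5 UMIs in iNKT cells and 0 in total cells, and IFNG, IL13 and IL17A had 0 on both sides. At 436000 UMIs over the 109 cells, a count of 0 allows up to 6.88 CPM.

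Of 4 cytokine receptor genes compared, 3 were at least 2-fold higher, while receptors of migration were split. IL7R, the interleukin 7 receptor, stood at 546 against 87.7 CPM, a ratio of 6.22 (5.23 to 7.40), and IL2RB, the beta chain of the interleukin 2 and 15 receptors, had 23 against 3 UMIs. IL6R, which signals through gp130, had 38 UMIs in iNKT cells and 0 in total cells. CCR7, the receptor that leads thymocytes to the medulla, stood at 534 CPM with a UMI in 94 of 109 iNKT cells, against 11.1 CPM and 27 of 855 total cells, a ratio of 48.1 (34.0 to 69.7). CCR4 and the oxysterol receptor GPR183 had ratios of 21.8 (12.5 to 39.7) and 13.2 (8.56 to 20.7). CXCR4, the receptor that holds cells in the cortex, stood at 122 against 481 CPM, 3.95-fold lower (3.01 to 5.30), and CCR9, a receptor of thymic and gut homing, was 2.18-fold lower (1.30 to 3.96). Of 9 genes of migration compared, 4 were at least 2-fold higher and 4 lower.

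All 8 S100, annexin and related genes compared were at least 2-fold higher in mitotic iNKT cells, with a median log2 ratio of 5.37. VIM, the intermediate filament vimentin, stood at 1644 against 49.4 CPM and in 107 of 109 against 45 of 855 cells, a ratio of 33.3 (28.1 to 39.6). S100A10, the partner of annexin A2, stood at 663 against 7.02 CPM, a ratio of 94.5 (62.2 to 149.8), and ANXA1 at 165 against 3.22 CPM, a ratio of 51.3 (27.1 to 107). S100A4 and S100A6, calcium-binding proteins of effector and memory T cells, had ratios of 52.0 (30.6 to 94.2) and 55.6 (30.2 to 112), in 35 and 32 of the 109 iNKT cells, and 1 iNKT cell held 23.6% and 1 held 21.2% of their UMIs.

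Interferon-stimulated and MHC genes were also higher. All 7 interferon-stimulated genes compared passed 2-fold, at a median log2 ratio of 2.05. IFI6 stood at 904 against 32.5 CPM, a ratio of 27.8 (22.5 to 34.7), and ISG15 at 241 against 7.89 CPM, a ratio of 30.5 (19.8 to 48.5). Of 6 MHC genes compared, 5 passed 2-fold, at a median of 1.67. Against the total cells without a recombination-stage UMI 2 of 7 did, at a median of 0.93, beside 222 of all 2831 genes at least 2-fold higher. There the immunoproteasome genes PSMB8, PSMB9 and PSMB10 had ratios of 1.90, 1.80 and 1.97. B2M, the light chain of class I molecules, stood at 6580.3 against 1054 CPM, a ratio of 6.24 (5.94 to 6.56), and TAP1, the peptide transporter, at a ratio of 4.33 (3.04 to 6.12). CD74, the class II invariant chain, stood at 3131 against 2779 CPM, a ratio of 1.13 (1.06 to 1.19).

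Among 17 immediate early and heat shock genes compared, 5 were at least 2-fold higher and 1 lower. FOS stood at 365 against 26.6 CPM, a ratio of 13.7 (10.5 to 17.9), and DUSP1, a phosphatase of MAP kinases, had a ratio of 3.47 (2.35 to 5.04). The chaperones HSP90AA1 and HSPD1 had ratios of 0.971 (0.890 to 1.06) and 1.02 (0.827 to 1.24), and TNFAIP3, a brake on NF-kB, was 3.62-fold lower (2.13 to 6.67). Of 3 granule genes compared, 2 passed 2-fold. SRGN, the granule proteoglycan, had a ratio of 4.76 (4.18 to 5.42), and CST7, a cathepsin inhibitor of cytotoxic cells, of 18.4 (11.1 to 31.4).

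Genes of oxidative phosphorylation and of ribosome assembly had medians near equality, and glycolysis genes a higher one. Of 45 nuclear genes of oxidative phosphorylation and mitochondrial transport compared, 3 were at least 2-fold higher and 0 lower, at a median log2 ratio of −0.10, and the 3 were MCUB, the mitochondrial carrier UCP2 at a ratio of 6.44 (5.20 to 7.98) and the ADP/ATP carrier SLC25A5 at 3.57 (3.01 to 4.22). Of 11 glycolysis genes compared, 3 were higher and 0 lower, at a median of 0.47. That median was 0.37 after weighting and 0.22 against the total cells without a recombination-stage UMI. PKM, the last enzyme of glycolysis, had a ratio of 2.05 (1.80 to 2.34), or 1.82 and 1.52 in the same order, and 2 of 11 stayed higher in each. Against the total cells without a recombination-stage UMI 1 gene, PFKP, was at least 2-fold lower at 0.488. Of all 2831 genes there, 222 were higher and 178 lower. HK1, a hexokinase, had a ratio of 2.18 (1.51 to 3.07) and HIF1A, the hypoxia factor, of 3.92 (2.79 to 5.45), while GAPDH stood at 3243 against 3215 CPM, a ratio of 1.01 (0.954 to 1.07). Of 15 genes of ribosome biogenesis, 0 were higher and 2 lower, at a median of 0.17, with NPM1, a nucleolar chaperone, at a ratio of 1.26 (1.14 to 1.38) and EBNA1BP2 3.71-fold lower (2.56 to 5.57). Of 5 apoptosis regulators compared, TP53INP1, a target of p53, was at least 2-fold lower at 0.213 (0.0913 to 0.426).

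**Figure D4:**
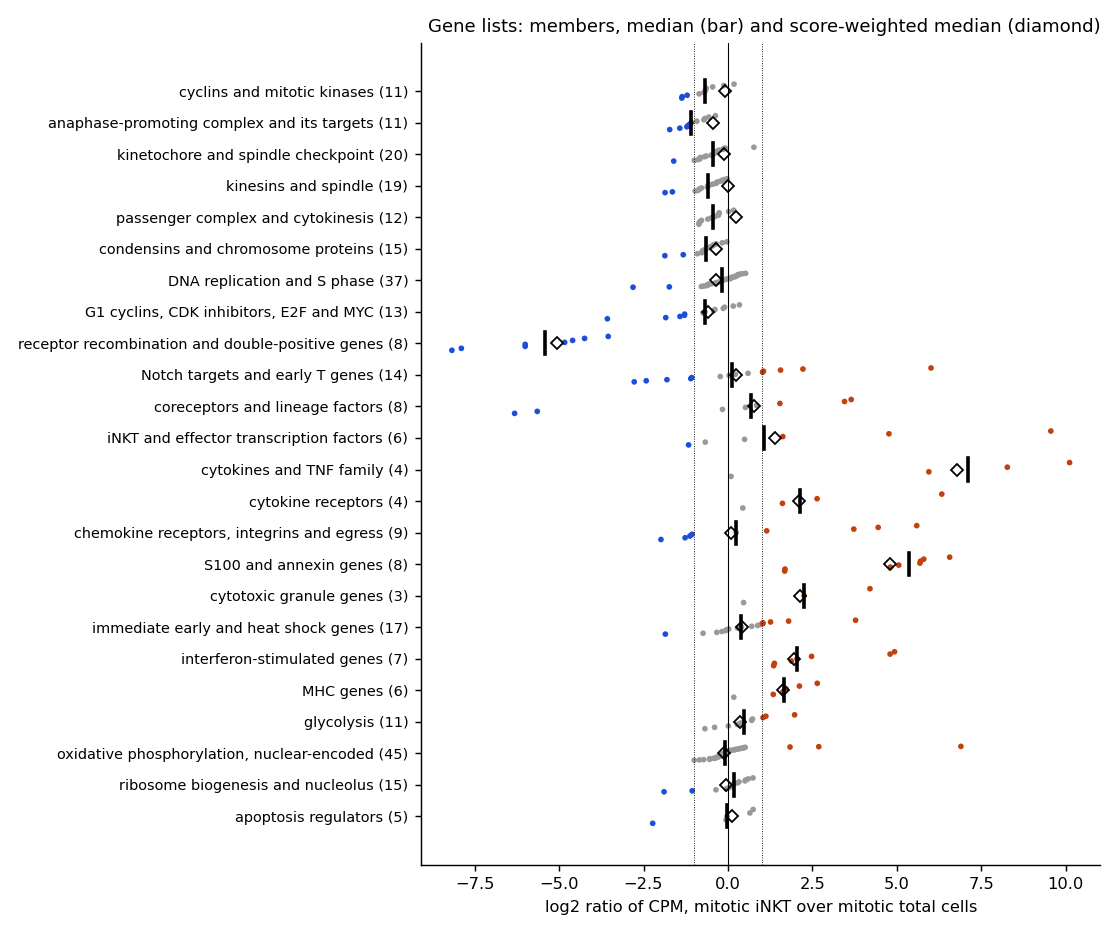
Log2 ratio of CPM, mitotic iNKT over mitotic total cells (x axis), for the members compared of each gene list (y axis, number compared in parentheses), in orange above 2-fold, blue below and grey between. Black bars are medians and diamonds are medians after total cells were weighted to the 6-gene sums of iNKT cells. The 7 lists of division machinery at the top lie between −1.08 and −0.16 by their medians, recombination genes lie at −5.42 and TNF family genes at 7.11.

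Across the 7 lists of division machinery, 0 of 125 genes compared, of 158 measured, were at least 2-fold higher and 16 were lower by that much, beside 9.4% and 7.71% of all genes, at a median log2 ratio of −0.49. The interval lay below 1 for 77 of them, included 1 for 44 and lay above 1 for 4. The same counts over all genes are not given here, so these 3 counts only describe the lists. Since the sum of the rule itself was lower in iNKT cells, total cells were also weighted to the 6-gene sums of iNKT cells. The median was then −0.19 with 13 genes at least 2-fold lower, beside 177 of all 2804 genes compared. Among the 163 total cells with no UMI of RAG1, RAG2, DNTT, PTCRA or CD1E the median was −0.23 with 12 lower. There 178 of all 2831 genes compared were at least 2-fold lower. Lower under all 3 comparisons were 11 genes, ANAPC15, CDC27, CDCA5, FBXO5, NCAPG2, NUSAP1, RPA3, TMPO, TTK, UHRF1 and WEE1.

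Among cyclins and mitotic kinases, 3 of 11 compared were at least 2-fold lower, at a median of −0.67, or −0.09 with weighted total cells. CCNB1, the main mitotic cyclin, stood at 59.6 against 153 CPM, a ratio of 0.391 (0.253 to 0.579), and of 0.802 after weighting. CDK1, its kinase, stood at 61.9 against 96.8 CPM, a ratio of 0.640 (0.415 to 0.948) and 1.08 after weighting, and PLK1, the Polo kinase of mitotic entry, at 133 against 212 CPM, with ratios of 0.627 (0.471 to 0.819) and 1.18. WEE1, the kinase that holds CDK1 off, stayed low at 0.388 (0.215 to 0.651) and 0.427. MYBL2, a transcription factor of G2 genes, had a ratio of 1.13 (0.830 to 1.52).

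The anaphase-promoting complex and its targets had the lowest median of the 7 lists, −1.08, with 6 of 11 at least 2-fold lower, and −0.45 with 4 lower after weighting. CDC27, a core subunit, stood at 32.1 against 106 CPM, a ratio of 0.303 (0.164 to 0.514), and FBXO5, the inhibitor EMI1 of the complex, at 78.0 against 176 CPM, a ratio of 0.443 (0.304 to 0.626). SGO1, the shugoshin that protects cohesin, had a ratio of 0.430 (0.320 to 0.568) and 0.667 after weighting. UBE2S, which extends ubiquitin chains for the complex, had a ratio of 0.610 (0.533 to 0.695) and 0.935 after weighting.

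Kinetochore, spindle and cytokinesis genes lay nearer to equality once the sums were weighted. Of 20 kinetochore and checkpoint genes, TTK, the checkpoint kinase MPS1, passed 2-fold, at 0.329 (0.182 to 0.549), while CENPE, the kinetochore motor, stood at 296 against 367 CPM, with ratios of 0.806 (0.667 to 0.967) and 1.18 after weighting. NUSAP1, a microtubule-bundling protein of the spindle, was the lowest of 19 kinesin and spindle genes, at 335 against 1217 CPM, a ratio of 0.275 (0.232 to 0.325) and 0.408 after weighting. TUBA1B, an alpha tubulin, stood at 4949.5 against 6262 CPM, a ratio of 0.790 (0.756 to 0.826). None of 12 genes of the passenger complex and cytokinesis passed 2-fold in either direction, and their median of −0.44 turned to 0.23 after weighting. AURKB, the passenger kinase, had ratios of 0.551 (0.444 to 0.677) and 0.822, and its partner BIRC5, or survivin, of 0.821 (0.701 to 0.958) and 1.26.

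Chromosome proteins included abundant genes with modest differences. HMGB2, a chromatin protein of proliferating cells, stood at 2716 against 4642 CPM, a ratio of 0.585 (0.551 to 0.621) and 0.775 after weighting. NCAPG2, a condensin II subunit, stood at 36.7 against 134 CPM, a ratio of 0.274 (0.155 to 0.450) and 0.281 after weighting, and TMPO, a lamina-associated protein, had ratios of 0.399 (0.248 to 0.613) and 0.434. Of 15 genes in this list 2 were at least 2-fold lower.

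DNA replication genes had a median of −0.16 over 37 genes, 2 of them at least 2-fold lower. After weighting the median was −0.36, with 4 of 38 lower. PCNA, the sliding clamp, stood at 915 against 896 CPM, a ratio of 1.02 (0.918 to 1.13), MCM5, a helicase subunit, had a ratio of 1.35 (1.04 to 1.72) and TK1, thymidine kinase, of 1.08 (0.941 to 1.24). The 2 lower genes were RPA3 and UHRF1. RPA3, the small subunit of replication protein A, stood at 360.1 against 2526 CPM, a ratio of 0.143 (0.121 to 0.167) that was 0.140 after weighting and 0.183 against total cells without recombination-stage UMIs. Its partner RPA2 had a ratio of 1.44 (1.13 to 1.80). UHRF1, which carries DNA methylation through replication, stood at 158 against 527 CPM, with ratios of 0.300 (0.233 to 0.382), 0.304 and 0.385 in the same order.

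Regulators of entry into the cycle included MYB, CDK6 and cyclin D3 among the lower genes. Of 13 G1 cyclins, CDK inhibitors, E2F and MYC family genes compared, 0 were at least 2-fold higher and 5 lower, at a median of −0.68. MYB, a factor of immature thymocytes, stood at 18.3 against 218 CPM, 11.9-fold lower (5.99 to 27.6), CDK6 was 3.58-fold lower (2.24 to 6.10) and E2F2 2.68-fold lower (1.75 to 4.31). The D-type cyclins were split, with CCND3, which drives expansion after the pre-T cell receptor, at 259 against 634 CPM, 2.45-fold lower (2.02 to 2.98), and CCND2, which lay under the minimum level and is not among the 13, at 66.5 against 3.22 CPM, a ratio of 20.7 (10.0 to 45.9). MYC stood at 57.3 against 45.3 CPM, a ratio of 1.27 (0.794 to 1.94).

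Genes of identity were also set against both other choices of total cells. After weighting, all 8 S100 and annexin genes, all 7 interferon-stimulated genes and all 8 recombination genes compared still passed 2-fold in the same direction. Of all 2804 genes compared after weighting, 276 were at least 2-fold higher and 177 lower. Against the 163 total cells without recombination-stage UMIs, 8 of 9 S100 and annexin genes and 6 of 7 interferon-stimulated genes did, beside 222 of all 2831 genes at least 2-fold higher. In that comparison ratios were smaller for many of the higher genes, at 23.6 for ID2, 11.2 for CCR7, 14.4 for S100A4, 9.49 for VIM, 6.99 for KLF2, 7.48 for ISG15 and 9.99 for IFI6. They were also smaller for CCR4 (9.35), GPR183 (3.53), CD28 (3.62), CD44 (2.32), CST7 (4.49), ANXA1 (15.4), TNFRSF18 (20.6) and SLC25A5 (2.29). IL7R and IL6ST had larger ratios there, 12.3 and 123, and CCR9 was further from equality at 0.159. In these cells TNFRSF4, CD40LG and HPGDS had 0 UMIs, which gives ratios of at least 141, 58.8 and 41.9, and ZBTB16 had a ratio of 144. CD8B, which was not used to choose them, stood at 183 CPM in them and FABP6 at 650.3 CPM. RGCC had a ratio of 0.0241 and ARPP21 of 0.00692 against these cells. All 3 choices of total cells come from the same library and are set against the same 109 iNKT cells, so their ratios are not independent.

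The comparison was repeated in cells with 0 UMIs of the 6 genes before thinning, 5426 iNKT and 944 total cells of at least 4000 UMIs. Here 149 of 2660 genes were at least 2-fold higher in iNKT cells (5.6%) and 197 at least 2-fold lower (7.41%). TNFRSF4 stood at 1231 against 58.3 CPM in these cells, a ratio of 21.1, against 1106 in mitotic cells, and the ratio of the 2 ratios was 52.4 (12.9 to 212), which is 5.71 on the log2 scale and was 3.94 with 8000 UMIs per cell. For CD40LG the levels were 393 and 73.6 CPM, a ratio of 5.33, and the ratio of ratios was 57.9 (18.3 to 183), or 5.85 on the log2 scale and 5.20 with 8000 UMIs. VIM stood at 1187 against 554 CPM, a ratio of 2.14, and had a ratio of ratios of 15.5 (13.1 to 18.5) at 4000 UMIs, which is 3.96 on the log2 scale and was 2.62 with 8000 UMIs per cell. Mitotic iNKT cells thus held less of TNFRSF4 and CD40LG and more of VIM than the other iNKT cells, each by less than 2-fold, whereas mitotic total cells held far less of all 3 than the other total cells. ZBTB16 was at 235 CPM in iNKT cells without the 6 transcripts and 220.2 CPM in mitotic ones.

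Among the 8 largest ratios of ratios were 5 genes of replication and division, PCLAF, TK1, UHRF1, MYBL2 and PBK, while other division genes were among the 8 smallest. The 6 genes of the rule chose both the mitotic cells and the cells set against them. Values of division genes in this contrast are therefore given as a description. PCLAF, a PCNA-associated factor, stood at 2.95 CPM in iNKT and 133 CPM in total cells without the 6 transcripts, and at 798 and 1189 CPM in mitotic cells, a ratio of ratios of 30.4 (22.9 to 40.3). TK1, UHRF1, MYBL2 and PBK, a mitotic kinase, followed the same order, with ratios of ratios of 29.3 (20.3 to 42.3), 20.9 (14.3 to 30.6), 23.8 (12.9 to 43.7) and 30.2 (11.5 to 79.3). At the other end, the ratio was lower in mitotic than in other cells for GADD45G, a growth arrest gene, at 0.321 (0.230 to 0.448), the transcription factor GFI1 at 0.183 (0.0745 to 0.450), MNDA at 0.300 (0.192 to 0.470), the beta tubulin TUBB4B at 0.420 (0.357 to 0.494), BBS7 at 0.306 (0.165 to 0.570), DBF4, the activator of the CDC7 kinase, at 0.402 (0.272 to 0.593) and the histone gene HIST2H2AC at 0.482 (0.391 to 0.594). With 8000 UMIs per cell the values for GADD45G, TUBB4B, BBS7, DBF4 and HIST2H2AC came nearer to equality, at −0.58, −0.83, −0.08, −0.84 and −0.35 on the log2 scale, against −1.64, −1.25, −1.71, −1.32 and −1.05 with 4000.

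**Figure D5:**
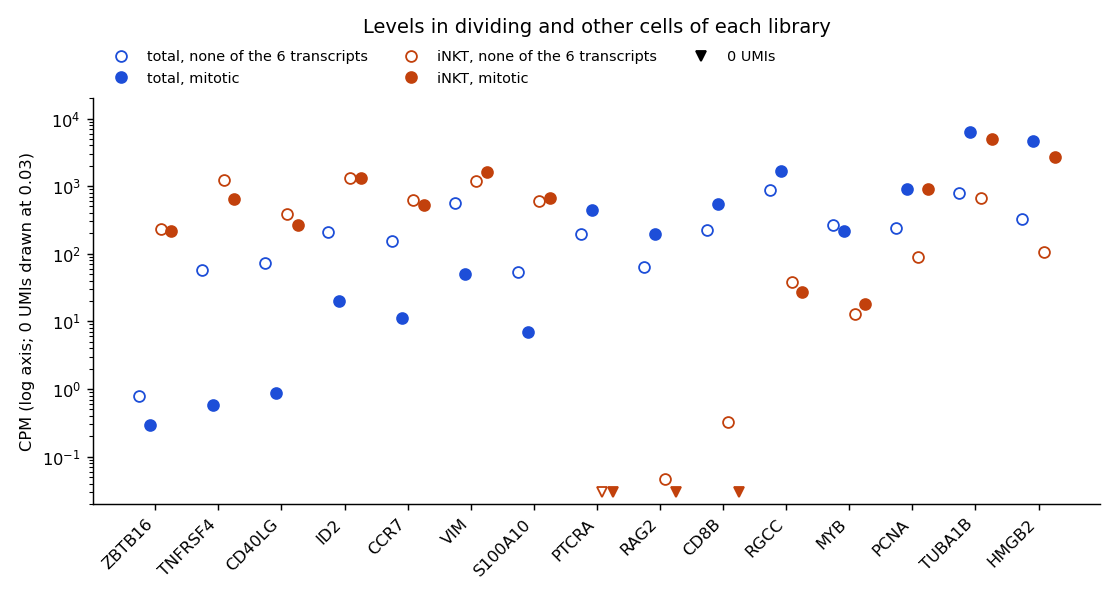
Level in CPM (y axis, log scale) of 15 genes in cells without the 6 transcripts (open circles) and mitotic cells (filled) of the total library (blue) and the iNKT library (orange), with triangles for 0 UMIs. CCR7, VIM and ID2 are lower in mitotic than in other total cells and within 2-fold between both kinds of iNKT cell, while PTCRA, RAG2 and CD8B are higher in mitotic total cells and at or under 0.323 CPM in iNKT cells.

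Within the iNKT library, mitotic cells held less TNFRSF18, CCND2 and MXD4 than cells without the 6 transcripts, and more CXCR4. The rule uses this contrast, so its counts and levels are given as a description. Of 2690 genes compared between mitotic cells and cells without the 6 transcripts, 252 were at least 2-fold higher in mitotic cells (9.37%) and 24 lower (0.892%). In the total library 271 of 2851 were higher (9.51%) and 170 lower (5.96%). Higher in both were 165 genes, 65.5% of those of the iNKT library and 60.9% of those of the total library, and 5 were lower in both. Among the 24 genes lower in mitotic iNKT cells were TNFRSF18, at 252 against 537 CPM, and CCND2, the D-type cyclin, at 66.5 against 213 CPM. MXD4, a partner of MAX that opposes MYC, stood at 34.4 against 99.5 CPM and YPEL3, a gene linked to growth arrest, at 20.6 against 79.8 CPM. The interferon-stimulated genes IFIT1 and SAMHD1 stood at 43.6 against 89.8 CPM and 29.8 against 77.1 CPM. CXCR4 was higher in mitotic iNKT cells, at 122 against 55.9 CPM.

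In total cells, levels of RAG2, CD8B and FABP6 were higher at higher mitotic sums, while in iNKT cells ZBTB16 and TNFRSF4 did not follow the sum in order. Cells were split by the 6-gene sum after thinning into 0 to 4 UMIs (38 iNKT and 166 total cells), 5 to 14 (46 and 315) and 15 or more (25 and 374). ZBTB16 stood at 289, 152 and 240.0 CPM in the 3 bands of iNKT cells, and TNFRSF4 at 868, 457 and 660.0 CPM. In total cells RAG2 stood at 90.4, 153 and 279 CPM, CD8B at 235, 453 and 767 CPM and FABP6 at 980.4, 1674 and 2692 CPM. PTCRA, RAG1, RAG2, CD8B and FABP6 had 0 UMIs in each iNKT band. VIM stood at 133 and 18.7 CPM in the lowest and the highest band of total cells and at 1769.7 and 1430.0 CPM in those of iNKT cells.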

How the data were processed

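Single cells of 2 pig thymus libraries were measured by droplet RNA sequencing, 1 library of total thymocytes (9112 barcodes, 29723207 UMIs) and 1 of iNKT thymocytes (12097 barcodes, 54457966 UMIs). The deposited values are UMI counts per gene and cell made by the authors with Cell Ranger 3.1.0, per the file headers, without further normalization. The submitters' processing notes also name Seurat 3.1; the genome build and annotation are not given in the sources used here. Of 21301 genes, 15520 had a usable symbol. Groups come from the sample labels.

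Cells with fewer than 500 genes, or with over 10% of their UMIs in 13 mitochondrially encoded genes, were removed; no doublets were removed and no doublet caller was run, and a limit of 20000 UMIs was an alternative. Members were thinned to 4000 UMIs with a fixed random seed and summed per library, 436000 UMIs for iNKT and 3420000 for total cells. Ratios of CPM have exact conditional binomial 95% intervals, shares have Clopper-Pearson intervals, and ratios of ratios have intervals on the log scale with 0 UMIs set to 0.5. Intervals and floors, set at 3 counts over a group, cover counting error only. With 1 library per group there is no test and no p-value. Named genes were the 15 with the highest lower bound and the 15 with the lowest upper bound of the ratio, the 8 largest and 8 smallest ratios of ratios by the bound nearest 1, the 6 genes of the rule, and members of 30 lists as examples, those with most UMIs or the largest ratio first, with others of known role chosen after their values were seen. Antigen receptor, mitochondrial and ribosomal protein genes were left out of the first 2 sets. The members and lists were chosen with earlier results of these data known. Overlapping genes and near-identical copies, such as MHC and tubulin genes, may share reads. The ratio and its interval were first tried on simulated counts, drawn independently for each gene over a whole group. Uneven spread of UMIs between cells was not simulated, so the trial does not cover it. Python 3.11.15, numpy 2.4.6, scipy 1.17.1 and pandas 2.3.3 were used. The alternatives numbered 17, of which 16 were planned and 1, leaving out the 2 total cells rich in HBB, was added after seeing the data.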

Additional observations from a re-analysis of the deposited data

How the results depend on the processing

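No direction changed among the 30 genes named for the highest and lowest ratios or among the ratios of ratios. Counts of genes and shares of cells have no direction. With TMM scaling 244 genes were higher and 250 lower, against 268 and 220 in the main comparison. Each ratio, count and share was followed only through the alternatives in which it was computed, fewer than 17 for ratios of ratios and shares. Other genes were not followed through all alternatives. Some of them changed direction with weighted total cells, such as TOP2A, from a ratio of 0.703 to 1.21, and PLK1, from 0.627 to 1.18. The 30 genes named for the highest and lowest ratios had 479 values, and all kept their direction and stayed past 2-fold. A gene under the minimum level in an alternative had no value there, as for MCOLN2, with 12 values, and DNTT, with 13. HBB had none in the alternative without the 2 total cells rich in it, where it stood at 3.81 CPM in total cells. Of 24 list medians, 17 kept their sign in each alternative. The other 7 were passenger complex, Notch, coreceptor, chemokine receptor, immediate early, ribosome biogenesis and apoptosis genes, whose medians changed sign in 2, 1, 1, 3, 1, 5 and 11 alternatives, with the widest range for chemokine receptors, from −0.68 to 2.23. Some calls were lost with at least 1 of the other choices of total cells. Examples were UBE2C, CDC20, CCNB1, SGO1, KLF13, ID3, CD247, PKM, PSMB8, PSMB9 and PSMB10, and the list is not complete. The counts moved with the minimum level. At a mean of 200 CPM, 62 genes were at least 2-fold higher and 45 lower, and at 20 CPM, 612 and 457. The share of mitotic cells moved with its definition. In the iNKT library it was 2.64% at a 6-gene sum of 3, 1.17% at 10, 1.06% with the sum taken after thinning, 1.17% at 3000 UMIs per cell, 8.78% at 8000 and 1.27% with at most 5% mitochondrial UMIs. In the total library it was 44.7%, 31.9%, 31.7%, 28.2% and 68.1% under the first 5 of these. Without the 2 total cells rich in HBB, 269 genes were higher and 220 lower. The alternative without iNKT cells holding 2 or more UMIs of genes of the stage with both coreceptors removed 0 cells. No paired analysis was possible because each group has 1 library. Depth limits genes at 0 UMIs in iNKT cells, which may reach 6.88 CPM.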
